A study of Mus musculus with 14 samples.

Results

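Glycolysis and its control by the hypoxia-inducible factor HIF-1 were followed here through 10 genes: Hif1a, Slc2a1, Slc2a3, Hk1, Hk2, Ldha, Pdk1, Pdk2, Pdk3 and Vegfa. They were found as the probe sets whose platform annotation names exactly 1 of these symbols, which gave 23 of the 45101 probe sets on the array. The brightest probe set by mean over 14 arrays stood for each gene, so the members are 10 of the 18194 genes measured, and the other 13 probe sets served as a check. The arrays came from bone marrow of mice double transgenic for hCD34 (a human CD34 promoter driving the tetracycline transactivator) and H2BGFP (a fusion of histone H2B with green fluorescent protein), on a C57BL/6 background. All groups, aged 6 to 8 weeks at the start, drank water with 1 mg/ml doxycycline, which turns the fusion gene off, over 12 weeks, so that each division diluted the label. Cells of the LSK phenotype (Lin-, Sca1+, Kit+), the fraction that holds hematopoietic stem cells and multipotent progenitors, were sorted by flow cytometry into 5 ranked levels of remaining label. There were 2 arrays of GFP0 (the most diluted), 3 of GFP1, 3 of GFP2, 2 of GFP3 and 4 of GFP4 (the level that kept most label), with about 1 to 2 divisions between neighbouring levels. The label marks only what the human CD34 promoter drove before doxycycline, and the labels call the arrays biological replicates without naming the animals, and p-values then cover only the spread between sorts, which may be technical.

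Glycolysis turns glucose into pyruvate in the cytosol. Pyruvate is then either reduced to lactate by lactate dehydrogenase or oxidised in mitochondria through the pyruvate dehydrogenase complex, which the pyruvate dehydrogenase kinases switch off. When oxygen is low, HIF-1α escapes destruction and raises transcription of glucose transporters, glycolytic enzymes, Pdk1 and Vegfa, a programme that has been studied in hematopoietic stem cells because of their quiescence and their place in the marrow.

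All values are log2 expression of amplified RNA, and differences are log2 differences. They ran from 2.69 to 15.13 over the table, with a median of 7.03, and array medians lay between 6.96 and 7.18. Pairs of arrays from the same level correlated with r between 0.928 and 0.990, and pairs from different levels with r between 0.911 and 0.990. Kit, a defining marker of the sort, averaged 9.07, with arrays from 8.05 to 9.91. Its slope over the levels was 0.24, with an adjusted p of 0.178 in limma and an unadjusted p below 0.05. Ly6a (Sca1) had no probe set naming it alone and was not analysed here. The 8 measured markers of neutrophils and monocytes had array means of 7.03 to 9.20 in GFP4 and 9.62 to 11.83 in GFP0, and the 6 mast cell markers had 6.14 to 7.72 in GFP4 and 8.63 to 8.84 in GFP0. On the slope over the levels 1 of these 8 genes (Ltf) and 3 of these 6 (Cpa3, Ms4a2 and Fcer1a) fell. After adjustment in limma 1.07% of all genes were called lower on it. At an unadjusted p below 0.05, 6 of the 8 neutrophil and monocyte genes and 5 of the 6 mast cell genes had lower slopes. Over all genes 16.7% reached that threshold in either direction. The 6 erythroblast markers had 6.33 to 6.72 in GFP4 and 6.90 to 6.93 in GFP0, and none of them passed. Of 8 T and NK cell genes 1 fell (Nkg7), and 0 passed of 4 B cell, 5 megakaryocyte and 8 endothelial and stromal genes. At an unadjusted p below 0.05 in limma, 1 megakaryocyte gene had a higher slope and 2 had lower ones. So did 2 T and NK cell genes and 1 erythroblast gene on the lower side. The neutrophil, monocyte and mast cell levels differed along the same GFP levels as the results that follow, and their part in them was not tested. In bulk samples fewer cells of a type and less RNA per cell cannot be told apart.

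Of the 10 members 1 was called for a change with the GFP level, Slc2a3, which encodes the high-affinity glucose transporter GLUT3. It rose with retained label on its bright probe sets, while its dim probe sets did not pass. It was the member called for the slope over the 5 levels (limma, adjusted p below 0.05), where 2.28% of all genes were called higher and 3.35% in either direction. It was also the member called for GFP4 against GFP0, where 1.25% of all genes were called higher and 1.68% in either direction, and for any difference between levels, where the share was 0.698%. The share of members called, 1 of 10, rests on 1 gene, and the members were chosen with earlier results of these data known. At an unadjusted p below 0.05 the slope of 4 members passed, Slc2a1, Slc2a3, Hk1 and Ldha, against 16.7% of all genes. Slopes were above 0 in 5 of the 10 members and in 45.2% of all genes, and the median slope was 0.02 per level over the members and -0.01 over all genes. The median of GFP4 minus GFP0 was 0.06 over the members and -0.04 over all genes.

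**Figure D1:**
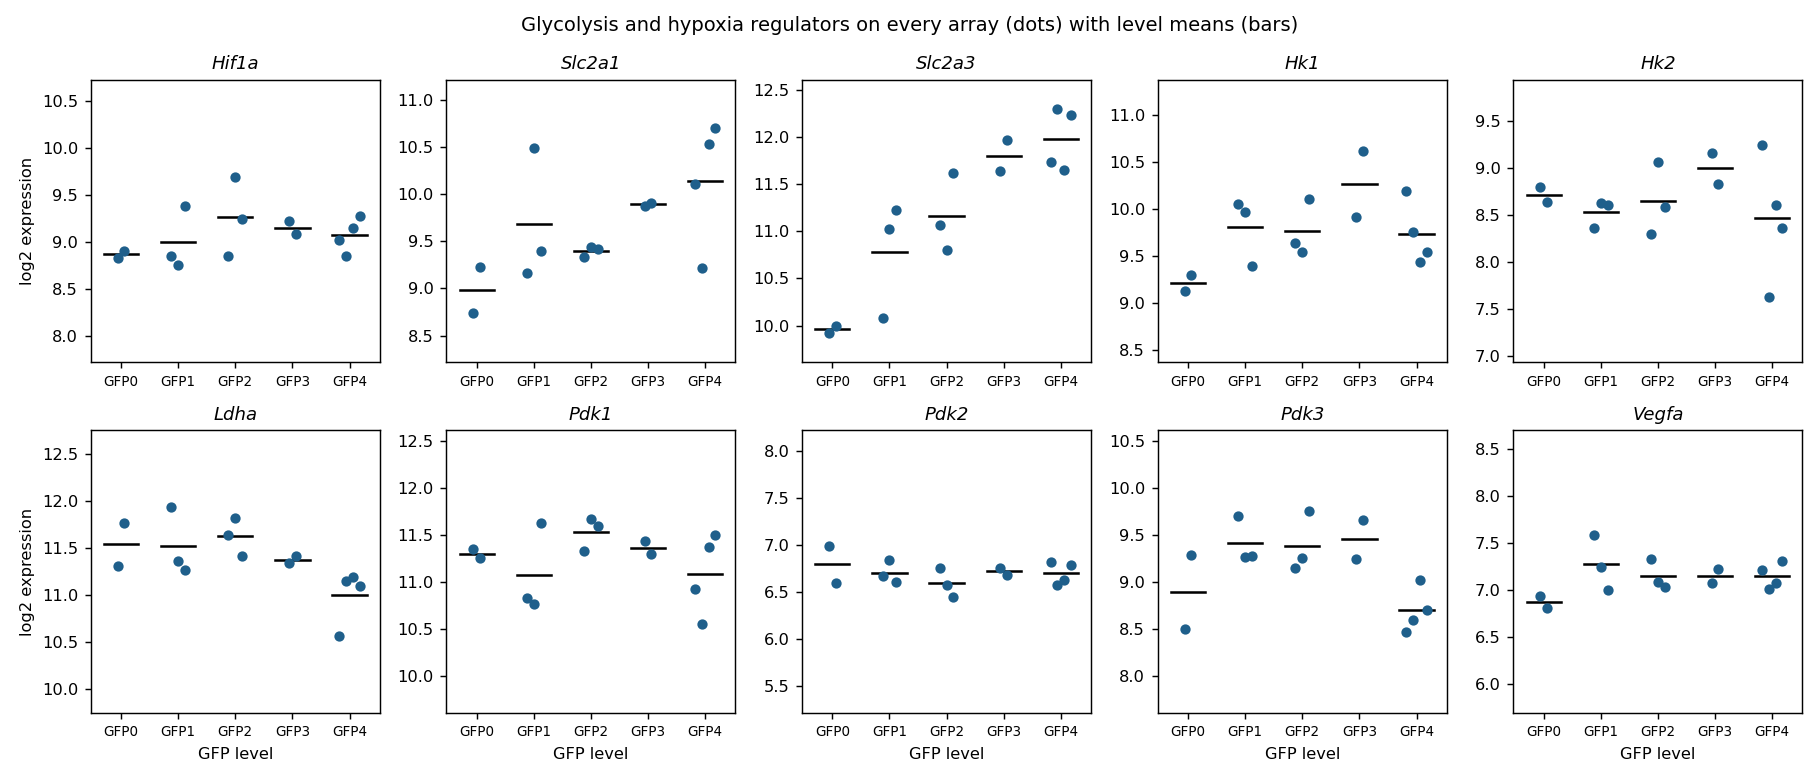
Log2 expression (y axis, own scale in each panel) of the 10 members on each of the 14 arrays (dots) at GFP0 to GFP4 (x axis), with bars at the level means. The 4 GFP4 arrays of Slc2a3 lie between 11.65 and 12.30, above the GFP0 arrays at 9.92 and 10.00, and the GFP4 arrays of Ldha lie below every other array.

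Hif1a encodes the oxygen-regulated subunit of HIF-1, whose amount is set mainly by the stability of the protein. Its log2 expression was 8.83 and 8.91 in GFP0, 8.86, 8.76 and 9.38 in GFP1, 8.85, 9.69 and 9.25 in GFP2, 9.22 and 9.09 in GFP3, and 9.03, 8.86, 9.15 and 9.28 in GFP4. The arrays of GFP4 and GFP0 overlapped, and the highest single array belonged to GFP2. The difference between GFP4, at 9.08 ± 0.18 (SD, n = 4), and GFP0, at 8.87 ± 0.06 (SD, n = 2), was 0.21 ± 0.24 (SE), with a 95% interval from -0.32 to 0.73 and an adjusted p of 0.747 in limma. The slope was 0.06 ± 0.05 per level (SE), with an adjusted p of 0.669 and an interval from -0.06 to 0.18 for this probe set. Over all its arrays Hif1a spanned 0.93, a range at the 30.1 percentile among all genes. Its other 3 probe sets, which averaged 6.20 to 8.55, had slopes of -0.09, 0.01 and -0.05, and the sign of the trend thus differed between probe sets.

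Glucose enters cells through facilitative transporters, of which GLUT1 (Slc2a1) is the widespread form and GLUT3 (Slc2a3) has the higher affinity. Slc2a3 read 9.92 and 10.00 in GFP0, 10.08, 11.03 and 11.23 in GFP1, 11.07, 10.80 and 11.62 in GFP2, 11.64 and 11.97 in GFP3, and 11.74, 12.30, 11.65 and 12.24 in GFP4. Every GFP4 array stood above both GFP0 arrays, as for 10.4% of all genes, while GFP3 overlapped with GFP4. The means climbed through 9.96 ± 0.05 (n = 2), 10.78 ± 0.62 (n = 3), 11.16 ± 0.42 (n = 3), 11.81 ± 0.23 (n = 2) and 11.98 ± 0.33 (n = 4, all SD) from GFP0 to GFP4. The slope was 0.51 ± 0.07 per level (SE), with a 95% interval from 0.35 to 0.67 and an adjusted p of 0.00309 in limma. Between GFP4 and GFP0 the difference was 2.02 ± 0.32 (SE), a 4.05-fold higher level in GFP4, with an interval from 1.32 to 2.72 and an adjusted p of 0.0104. Any difference between levels had an adjusted p of 0.0429, a call that held in 3 of the 14 fits leaving out 1 array (without the first or the third GFP1 array or the third GFP2 array). No step between neighbouring levels passed by itself, and the first, GFP1 over GFP0, was the largest at 0.82.

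The call of the slope of Slc2a3 held in all 14 fits that left out 1 array, with slopes between 0.47 and 0.53. It was lost with array quality weights (slope 0.49, adjusted p 0.076) and in a fit added after the data were seen, without the first GFP0 array and the first and second GFP4 arrays (slope 0.49, adjusted p 0.0588). GFP4 against GFP0 passed in 20 of 26 alternatives. Without the first GFP0 array the difference was 1.98 with an adjusted p of 0.0939, and without the second 2.06 with an adjusted p of 0.0524. That call was also lost with array quality weights (1.96, adjusted p 0.29), without the first arrays of GFP0 and GFP4 (2.06, adjusted p 0.113) and with the replicate number as a block (1.82, adjusted p 0.058). The 3′ to 5′ differences of the control probe sets, a sign of RNA length, were 3.99 to 5.05 in GFP4 and 4.39 to 4.51 in GFP0 for Actb, and 5.29 to 6.57 in GFP4 and 4.84 to 5.46 in GFP0 for Gapdh. With both as covariates the slope of Slc2a3 was 0.50, with an adjusted p of 0.0106.

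Slc2a3 is named by 4 probe sets, which fell into a bright and a dim pair. The second bright probe set averaged 11.91 ± 0.44 in GFP4 (SD, n = 4) and 9.89 ± 0.41 in GFP0 (SD, n = 2), and its slope was 0.50 ± 0.08 per level with an adjusted p of 0.00887 when limma was run on every probe set. The name endings of both bright probe sets (_s_at and _x_at) mark designs that can also bind related transcripts. The dim pair lay below the table median: 1 averaged 5.97 over the arrays with a slope of 0.12 (adjusted p 0.38), and the other averaged 5.27 with a slope of 0.0018 (adjusted p 0.991). The bright pair thus carried the trend of the gene, and the mean over its probe sets had a slope of 0.28.

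**Figure D2:**
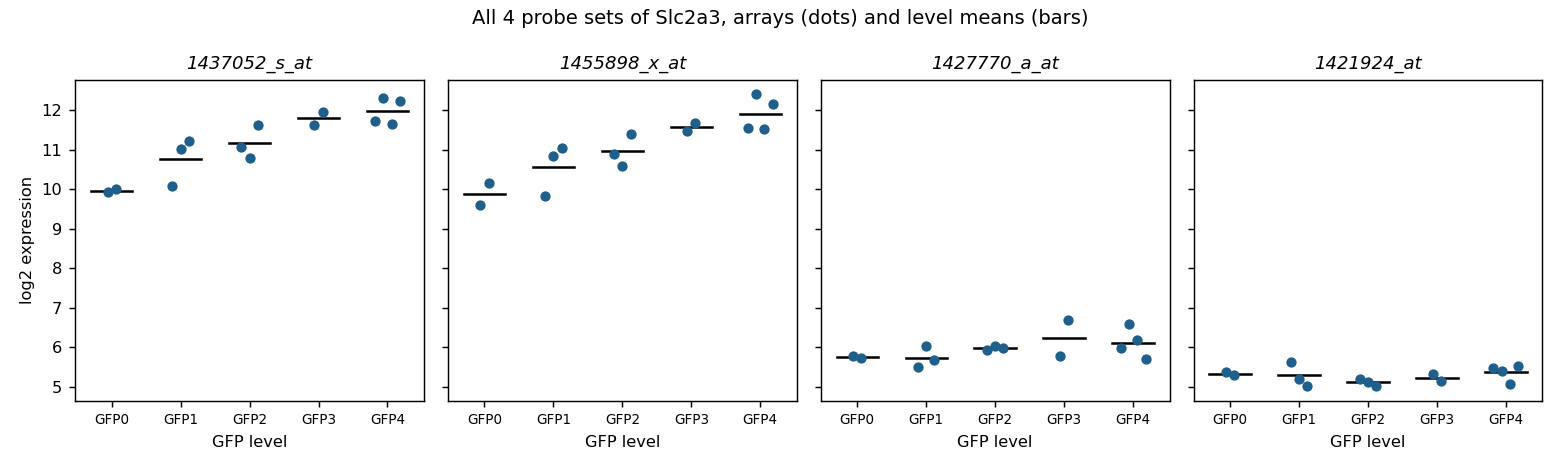
Log2 expression (y axis) of the 4 probe sets that name Slc2a3 on each array (dots) by GFP level (x axis), with bars at the level means. The 2 bright probe sets average 11.98 and 11.91 in GFP4 and 9.96 and 9.89 in GFP0, whereas the 2 dim ones stay between 5.02 and 6.69.

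Slc2a1 had a positive slope and a wider spread, and did not pass. It read 8.74 and 9.23 in GFP0, 9.16, 10.49 and 9.40 in GFP1, 9.34, 9.44 and 9.42 in GFP2, 9.88 and 9.91 in GFP3, and 10.11, 9.21, 10.53 and 10.70 in GFP4. Of the GFP4 arrays 3 stood above both GFP0 arrays, while the second fell within their range. The slope was 0.25 ± 0.09 per level (SE), with an interval from 0.06 to 0.45, an unadjusted p of 0.0154 and an adjusted p of 0.166 in limma. GFP4 averaged 10.14 ± 0.66 (SD, n = 4) and GFP0 8.99 ± 0.35 (SD, n = 2), a difference of 1.15 ± 0.40 (SE) or a ratio of 2.23, with an adjusted p of 0.183. Without that second GFP4 array the slope was 0.31 with an adjusted p of 0.0361 in limma. GFP4 minus GFP0 was then 1.46 with an adjusted p of 0.0439. Slc2a1 passed in this 1 of 26 alternatives for both contrasts. Its other probe sets had slopes of 0.18 and 0.04. The slope of Slc2a3 minus that of Slc2a1 was 0.26, with a 95% interval from -0.02 to 0.53 (ordinary least squares, 9 residual degrees of freedom), so a difference between both transporters was not resolved. This pair and those below were picked with their values known.

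Hexokinases phosphorylate glucose and so hold it in the cell, Hk1 being the widespread form and Hk2 the inducible one. Hk1 read 9.13 and 9.31 in GFP0, 10.06, 9.97 and 9.40 in GFP1, 9.64, 9.54 and 10.11 in GFP2, 9.91 and 10.62 in GFP3, and 10.19, 9.76, 9.44 and 9.54 in GFP4. Every GFP4 array stood above both GFP0 arrays, as for 10.4% of all genes, and the highest mean was that of GFP3. GFP4 averaged 9.73 ± 0.33 (SD, n = 4) and GFP0 9.22 ± 0.12 (SD, n = 2), a difference of 0.51 ± 0.28 (SE) with an adjusted p of 0.44. The slope was 0.15 ± 0.06 per level (SE), with an adjusted p of 0.255, and GFP3 minus GFP0 was 1.05 ± 0.32 (SE), with an adjusted p of 0.193. A second probe set of Hk1, dim at a mean of 5.51, had a slope of -0.09.

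Hk2 read 8.80 and 8.64 in GFP0, 8.37, 8.63 and 8.61 in GFP1, 8.30, 9.07 and 8.58 in GFP2, 9.16 and 8.83 in GFP3, and 9.25, 7.63, 8.61 and 8.37 in GFP4. GFP4 held both the highest and the lowest of all Hk2 arrays, on either side of GFP0. The slope was -0.0044 ± 0.08 per level (SE), with an adjusted p of 0.986, and its sign turned in several of the alternatives. The slope of Hk1 minus that of Hk2 was 0.15, with an interval from -0.09 to 0.39, and their trends were not told apart.

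Lactate dehydrogenase is built from the A subunit (Ldha), which favours lactate formation, and the B subunit (Ldhb), which favours its use. Ldha read 11.31 and 11.77 in GFP0, 11.94, 11.36 and 11.27 in GFP1, 11.64, 11.82 and 11.41 in GFP2, 11.34 and 11.41 in GFP3, and 10.56, 11.15, 11.19 and 11.10 in GFP4. All 4 GFP4 arrays lay below all 10 others, an arrangement found for 137 genes, 0.753% of all. GFP4 averaged 11.00 ± 0.30 (SD, n = 4) and GFP0 11.54 ± 0.33 (SD, n = 2), a difference of -0.54 ± 0.25 (SE) with an interval from -1.07 to -0.01 and an adjusted p of 0.332 in limma. The slope of -0.12 ± 0.06 per level (SE) had an unadjusted p below 0.05 and an adjusted p of 0.287. The separation of GFP4 was noticed in these values. Against the mean of the other 4 levels, a contrast added for that reason, GFP4 differed by -0.52 ± 0.17 (SE), with an adjusted p of 0.158, beside 1.62% of all genes called. By that contrast 1 member passed, Slc2a3, at 1.05 ± 0.22 (SE) and an adjusted p of 0.0382.

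Pyruvate dehydrogenase kinases phosphorylate and inactivate the pyruvate dehydrogenase complex, and Pdk1 is the member of the family best known as a HIF-1 target. Pdk1 was at 11.35 and 11.26 in GFP0, 10.83, 10.77 and 11.63 in GFP1, 11.33, 11.67 and 11.60 in GFP2, 11.44 and 11.30 in GFP3, and 10.93, 10.56, 11.38 and 11.50 in GFP4. The GFP4 arrays lay on both sides of GFP0. GFP4 averaged 11.09 ± 0.43 (SD, n = 4) and GFP0 11.30 ± 0.06 (SD, n = 2), a difference of -0.21, and the slope was -0.01 per level with an adjusted p of 0.942. Its other 3 probe sets had slopes of -0.03, 0.09 and 0.08.

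Pdk2, the widespread kinase of the family, was dim, with a mean of 6.69 below the table median. It read 6.99 and 6.60 in GFP0, 6.67, 6.84 and 6.61 in GFP1, 6.75, 6.58 and 6.45 in GFP2, 6.75 and 6.68 in GFP3, and 6.82, 6.58, 6.63 and 6.78 in GFP4. All levels overlapped within a span of 0.54, among the smallest 5.82% of all genes, and the slope was -0.02 per level with an adjusted p of 0.869.

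Pdk3 departed from a line more than the others. It read 8.51 and 9.29 in GFP0, 9.70, 9.27 and 9.28 in GFP1, 9.15, 9.26 and 9.76 in GFP2, 9.25 and 9.67 in GFP3, and 8.47, 8.60, 9.03 and 8.71 in GFP4. GFP4 had the lowest mean, and the first GFP0 array stood among its arrays. Any difference between levels had an unadjusted p of 0.0246 and an adjusted p of 0.315, and the departure from a line an unadjusted p of 0.0236 and an adjusted p of 0.679, where 7.01% of all genes had an unadjusted p below 0.05 and 0% passed after adjustment. GFP4 minus GFP1 was -0.72 ± 0.23 (SE) with an adjusted p of 0.186, and 0.989% of all genes were called in that pair. The slopes of the 3 kinases differed by at most 0.02 per level, with intervals within -0.18 and 0.22.

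Vegfa encodes the vascular endothelial growth factor A, a classical HIF-1 target. It read 6.94 and 6.81 in GFP0, 7.59, 7.25 and 7.01 in GFP1, 7.33, 7.09 and 7.04 in GFP2, 7.07 and 7.22 in GFP3, and 7.22, 7.01, 7.07 and 7.31 in GFP4. All GFP4 arrays stood above both GFP0 arrays, and GFP1 to GFP4 overlapped one another. Such a separation of all GFP4 arrays above both GFP0 arrays held for 3 members, Slc2a3, Hk1 and Vegfa, and for 10.4% of all genes. GFP4 averaged 7.15 ± 0.13 (SD, n = 4) and GFP0 6.87 ± 0.09 (SD, n = 2), a difference of 0.28, and the slope was 0.04 per level with an adjusted p of 0.683.

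**Figure D3:**
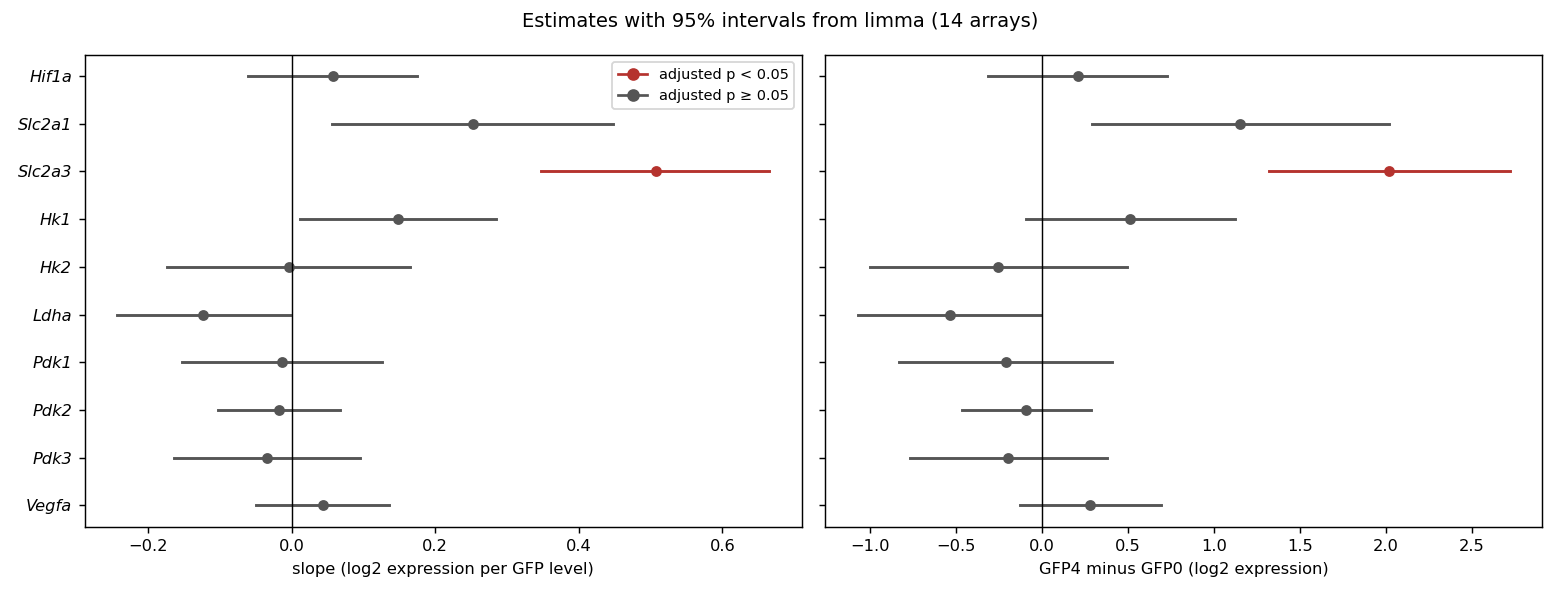
Estimates from limma for the 10 members with 95% intervals, the slope per level in one panel and GFP4 minus GFP0 in the other (x axes, log2). The interval of Slc2a3 runs from 0.35 to 0.67 for the slope and from 1.32 to 2.72 for the difference, the farthest from 0 in both panels.

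Ranked by level mean, each member gives 4 pairs of neighbours, and of these 40 pairs 0 passed in limma after adjustment, with 1 at an unadjusted p below 0.05. The order ran with the label for Slc2a3 alone among the 10. GFP0 had the lowest mean for Hif1a, Slc2a1, Slc2a3, Hk1 and Vegfa, and GFP4 the lowest for Hk2, Ldha and Pdk3. Over the other 9 pairs of levels 0 of 90 comparisons of a member passed in limma after adjustment, with 12 at an unadjusted p below 0.05, of which 6 were of Slc2a3. These 12 are 13.3% of the 90, beside 9.02% of the same comparisons over all genes, from 1.36% to 16.2% by pair. In these pairs the adjusted share of all genes called was at most 0.989%. In the pairs GFP3 against GFP0 and GFP4 against GFP2 that share was 0.055% and 0.115%, and it was 0% for each of the 4 neighbouring steps.

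The rest of the pathway was read through 4 lists of other glycolysis genes, pyruvate dehydrogenase genes, HIF regulators and HIF targets. Of 64 listed genes 56 were measured. On the slope 3 of the 56 rose, 0 fell and 53 did not pass, where 2.28% of all genes were called higher and 3.35% either way. The same 3 were higher in GFP4 than in GFP0, where 1.25% of all genes were called higher: Ldhb, Aldoc (aldolase C, which splits fructose bisphosphate) and Meis1 (a homeobox factor of stem cells that activates Hif1a in mouse). The median slope over the 56 was -0.0034, beside -0.01 over all genes. The lists were chosen with earlier results of these data known, so the shares beside them are no independent comparison.

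Ldhb read 10.46 and 11.21 in GFP0, 11.54, 11.87 and 11.93 in GFP1, 12.15, 11.75 and 12.28 in GFP2, 12.42 and 12.38 in GFP3, and 12.49, 12.47, 12.60 and 13.05 in GFP4. Every GFP4 array exceeded all other arrays, an arrangement shared by 0.462% of all genes. Its slope was 0.43 ± 0.06 per level (SE, adjusted p 0.00228), and it was 1.82 ± 0.25 (SE) higher in GFP4 than in GFP0 (adjusted p 0.00534). All 4 of its probe sets had slopes between 0.30 and 0.43, of which 1 missed the threshold at an adjusted p of 0.0508. The slope of Ldhb minus that of Ldha was 0.55 per level, with an interval from 0.37 to 0.73, which leaves out 0, for a pair picked with both trends known. The slope of Ldhb passed in all 26 alternatives and its GFP4 minus GFP0 in 22. That difference was not called without the first GFP0 array (1.45, adjusted p 0.0647), with array quality weights (adjusted p 0.0971), without both first arrays of GFP0 and GFP4 (adjusted p 0.0794) or on the arrays of these levels alone (adjusted p 0.0568).

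Aldoc read 7.93 and 7.49 in GFP0, 8.72, 8.89 and 9.04 in GFP1, 8.99, 9.07 and 9.54 in GFP2, 9.74 and 9.78 in GFP3, and 9.87, 8.53, 10.10 and 10.16 in GFP4. All GFP4 arrays stood above both GFP0 arrays, as for 10.4% of all genes. The second GFP4 array, also the low one for Slc2a1, stood far below the other 3. Its slope was 0.48 ± 0.08 (SE, adjusted p 0.0098), and a dim second probe set had a slope of 0.07 (adjusted p 0.672 when every probe set was tested). The call was lost with the 3′ to 5′ differences of Actb and Gapdh as covariates (slope 0.37, adjusted p 0.12), without the second GFP0 array (0.43, adjusted p 0.0607) and without both first arrays of GFP0 and GFP4 (0.51, adjusted p 0.0698). Its GFP4 minus GFP0 of 1.95 ± 0.37 (SE, adjusted p 0.0214) passed in 17 of 26 alternatives. It was not called without either GFP0 array or without the fourth GFP4 array, at adjusted p of 0.103, 0.104 and 0.0568 in that order.

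Meis1 read 11.27 and 11.50 in GFP0, 11.14, 12.18 and 12.57 in GFP1, 12.13, 12.37 and 12.87 in GFP2, 13.19 and 12.76 in GFP3, and 12.79, 12.85, 12.74 and 13.18 in GFP4. All GFP4 arrays lay above both GFP0 arrays, as for 10.4% of all genes, and overlapped with GFP2 and GFP3. GFP4 minus GFP0 was 1.51 ± 0.34 (SE, adjusted p 0.0433). The slope was 0.40 ± 0.08 (SE, adjusted p 0.0141), and a link to the level of Hif1a was not tested. The other 2 probe sets of Meis1 had slopes of 0.22 (adjusted p 0.336) and 0.37 (adjusted p 0.251), and neither passed when every probe set was tested. With array quality weights the slope of Meis1 had an adjusted p of 0.168, and without both first arrays of GFP0 and GFP4 it had one of 0.123. Without the first GFP0 array the slope of Meis1 was 0.38 with an adjusted p of 0.0935, and GFP4 minus GFP0 passed in 8 of 26 alternatives and in 4 of the 14 that left out 1 array.

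**Figure D4:**
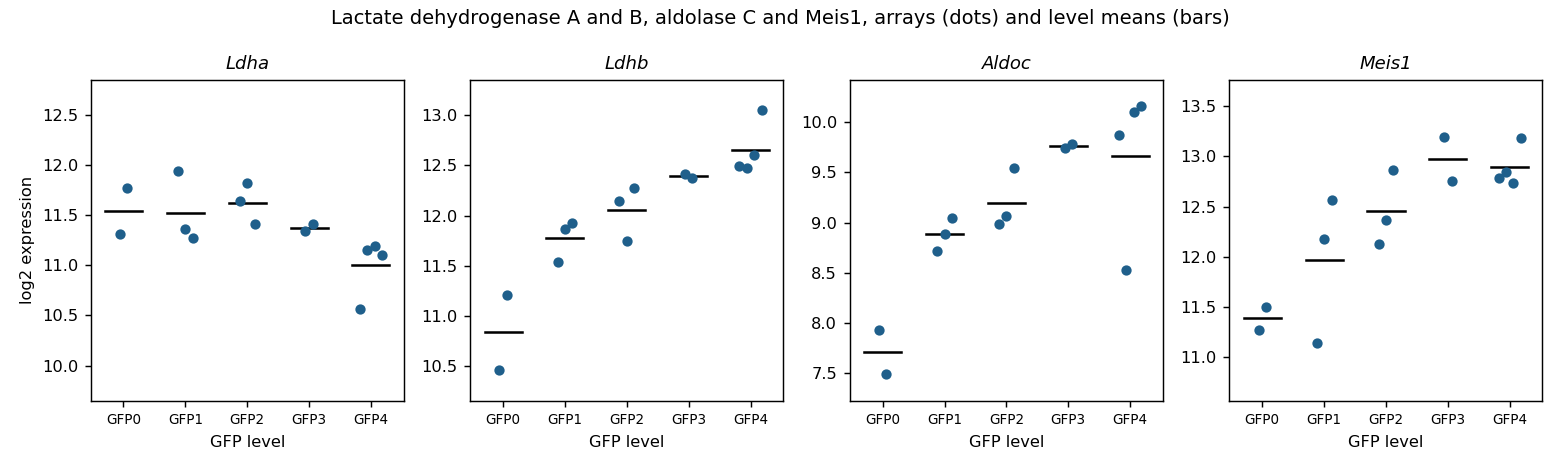
Log2 expression (y axes, equal span) of Ldha, Ldhb, Aldoc and Meis1 on each array (dots) by GFP level (x axis), with bars at the level means. Ldhb lies between 12.47 and 13.05 in GFP4 and at 10.46 and 11.21 in GFP0, while Ldha lies between 10.56 and 11.19 in GFP4 and at 11.31 and 11.77 in GFP0.

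Among the 18 measured genes of glycolysis, 2 rose (Ldhb and Aldoc), 0 fell and 16 did not pass, and the lowest slope was that of Slc16a1, a lactate and pyruvate transporter, at -0.19 (adjusted p 0.427). Of the 9 pyruvate dehydrogenase genes 0 passed in limma, with 2 at an unadjusted p below 0.05. Their slopes ran from -0.23 for Mpc1, a subunit of the mitochondrial pyruvate carrier, to 0.13 for Pdp1, a phosphatase that reactivates the complex. Of the 15 HIF regulators 1 rose (Meis1) and 14 did not pass, and Egln3, a prolyl hydroxylase that marks HIF-1α for destruction, had the lowest slope at -0.23 (adjusted p 0.198). Of the 14 HIF targets 0 passed, with 2 at an unadjusted p below 0.05. Their slopes ran from -0.31 for Tfrc, the transferrin receptor (adjusted p 0.254), to 0.12 for Mxi1, a Myc antagonist (adjusted p 0.52). Over the 4 lists 7 genes had higher and 6 lower slopes at an unadjusted p below 0.05 in limma. Over all genes 16.7% reached it in either direction. Of the glycolysis genes 3 were higher and 0 lower, and of the HIF regulators 4 were higher and 2 lower.

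**Figure D5:**
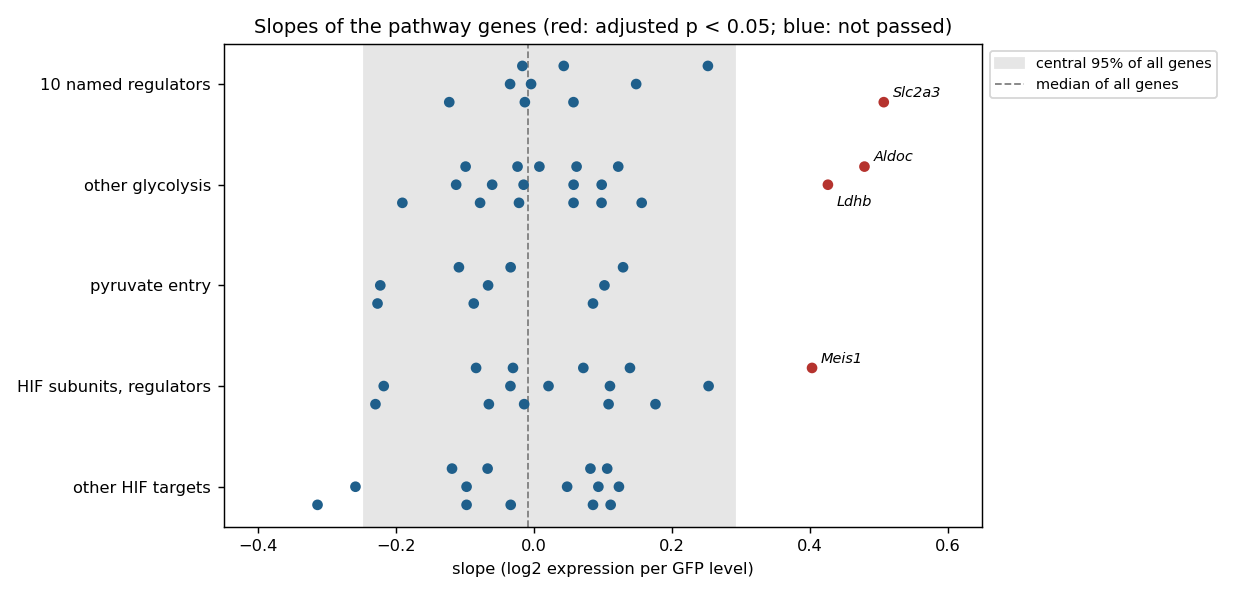
Slope per GFP level (x axis, log2) of the members and of the 4 pathway lists (rows), one point per gene, red where called and blue where not, over a grey band for the central 95% of all genes and a dashed line at their median. Slc2a3 at 0.51, Aldoc at 0.48, Ldhb at 0.43 and Meis1 at 0.40 are the called genes, and the rest lie between -0.31 and 0.25.

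HIF-1 binds DNA at a core of ACGTG or GCGTG, here searched on both strands (CACGT and CACGC on the other) in the 250 bases before each start of transcription listed by RefSeq on GRCm38.p6. The table held 14 windows for 9 of the 10 members, and Slc2a3 was not among them. Of these 14 windows 10 held the core, and of all 32851 windows of this length 12679 did (38.6%). The members were chosen as genes of glycolysis and hypoxia, so a high share says nothing about these arrays. A gene with several starts counts with several windows. The windows of Slc2a1, Ldha, Ldhb and Aldoc are shown as those of a glucose transporter, of both lactate dehydrogenase subunits and of the called aldolase, 5′ to 3′ on the strand of the gene, with the core in capitals. They lie at chr4:119108495-119108744 (plus strand, 2 matches), chr7:46845554-46845803 (plus strand, the first of 2 starts, 5 matches), chr6:142507958-142508207 (minus strand, 1 match) and chr11:78322823-78323072 (plus strand, the first of 2 starts, 1 match). A CACGTG counts once on each strand.
Slc2a1: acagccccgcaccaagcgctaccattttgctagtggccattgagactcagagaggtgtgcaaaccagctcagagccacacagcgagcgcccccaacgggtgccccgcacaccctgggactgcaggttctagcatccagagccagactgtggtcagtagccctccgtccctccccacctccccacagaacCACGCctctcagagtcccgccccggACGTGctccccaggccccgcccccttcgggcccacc
Ldha: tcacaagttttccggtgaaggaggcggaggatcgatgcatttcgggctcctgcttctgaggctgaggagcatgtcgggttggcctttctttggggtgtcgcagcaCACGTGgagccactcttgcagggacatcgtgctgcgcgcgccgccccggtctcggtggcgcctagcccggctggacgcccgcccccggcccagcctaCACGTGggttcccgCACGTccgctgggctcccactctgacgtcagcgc
Ldhb: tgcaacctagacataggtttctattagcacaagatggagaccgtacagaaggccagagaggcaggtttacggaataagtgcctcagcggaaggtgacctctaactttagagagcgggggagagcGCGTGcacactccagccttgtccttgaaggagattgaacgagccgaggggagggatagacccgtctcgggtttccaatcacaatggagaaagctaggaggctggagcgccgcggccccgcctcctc
Aldoc: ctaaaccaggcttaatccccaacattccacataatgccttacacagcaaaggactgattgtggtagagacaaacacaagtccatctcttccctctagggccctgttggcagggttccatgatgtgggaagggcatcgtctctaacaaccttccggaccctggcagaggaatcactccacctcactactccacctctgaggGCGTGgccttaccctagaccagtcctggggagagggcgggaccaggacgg
A match is a sequence in a window, and binding was not measured in these cells.

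Genes whose pattern was most like that of a member were sought by Pearson correlation over the 14 arrays, as a description of these arrays. The search covered genes at least as bright as the table median whose probe set name does not end in _x_at or _s_at. For Slc2a3 they were Bgn (r = 0.968), Armcx6 (0.952), Cadps2 (0.948), Map1lc3b (0.948) and Unc45b (0.943). For Hif1a they were Mosmo (r = 0.915), Jade1 (0.877), Ccdc122 (0.875), Tceanc (0.869) and Nt5dc1 (0.868). The arrays behind each r share their GFP levels.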

How the data were processed

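Sorted LSK cells gave 14 samples, whose amplified and biotin-labelled RNA went onto Affymetrix arrays, per the labels' protocols. Deposited values are on a log2 scale, as their range shows. The submitters' processing notes name GCOS, RMA and affy without versions. RMA makes values comparable between arrays within a probe set, and no detection calls come with them. Columns were tied to samples through their labels, and 0 columns belonged to no sample. Of the 45101 probe sets 34958 named 1 gene, 932 several and 9211 none.

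No further normalization was applied. The 5 group means were modelled over all 14 arrays and 18194 genes with limma 3.58.1 (R 4.3.3) and eBayes, with 9 residual and 3.99 prior degrees of freedom. Contrasts were the slope with equal weight per level, all pairs of levels, and F tests of any difference and of the departure from a line. All p-values are two-sided and adjusted over all genes by Benjamini and Hochberg, with calls below 0.05. The fit was tested on simulated data. Differences carry standard errors and group means carry SDs.

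The members and the lists were chosen with earlier results of these data known. All members were named with every array, as were pathway genes past the threshold, the highest and lowest slope of each list, and the 5 genes most like Slc2a3 and Hif1a. Alternatives were 13, plus 2 chosen after seeing the data. Promoters came from RefSeq (GRCm38.p6). Figures were drawn with matplotlib 3.10.9.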

Additional observations from a re-analysis of the deposited data

Results flagged for a closer look

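In groups of 4 to 10 arrays a lone extreme array was looked for by its gap to the nearest other array divided by the range of the group, a test that chance passes in about 1 of 20 groups. In GFP4, the one level of that size, 1 of 10 members and 4 of 56 pathway genes had such an array. Ldha was at 10.56 on the first GFP4 array, a gap of 0.856 of the range, with the other 3 between 11.10 and 11.19. Without that array GFP4 minus GFP0 of Ldha was -0.39, with an adjusted p of 0.358 in limma. Mpc1 was at 7.001 on the fourth GFP4 array, a gap of 0.863 of the range, with the other 3 between 8.15 and 8.33. The other 3 pathway genes, named here after their values were seen, were Ankrd37 at 5.94 on the second array (a gap of 0.917 of the range), Adm at 7.38 on the first (0.902) and Pdhx at 5.80 on the first (0.832).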

How the results depend on the processing

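The slope of Slc2a3 was above 0 in all 26 alternatives and passed in 24 (0.28 to 0.53), and its GFP4 minus GFP0 passed in 20 (1.11 to 2.13). The number of members called for any difference was 0 with median centring, cyclic loess, the mean over probe sets, the second brightest probe set, weighted arrays, a replicate block, 3′ to 5′ covariates, and without both narrow arrays (the first of GFP0 and of GFP4, with a narrow interquartile range) with or without the second GFP4 array. Leaving out 1 array gave 0 to 1. For the slope it was 0 with array quality weights and without these 3 arrays (both narrow ones and the second of GFP4), and 1 to 2 leaving out 1 array. For GFP4 against GFP0 it was 0 with weights or the block, and without the narrow arrays or these 3, and 0 to 2 leaving out 1. For other pairs it was 3 with array quality weights (in GFP4 against GFP2, Slc2a1, Slc2a3 and Ldha), and 0 to 1 leaving out 1 (Slc2a3 in GFP4 against GFP1 without the third GFP1 array, adjusted p 0.0457). Pathway genes called numbered 1 without both narrow arrays, and 2 to 5 leaving out 1. Slc2a1 passed in 1 alternative, without the second GFP4 array, for both contrasts.

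Signs turned for members near 0. The slope of Hk2 was 0.0039 with centring, 2.33e-05 with the block, 0.0161 without these 3 arrays, and -0.0567 to 0.0515 leaving out 1 (GFP4 minus GFP0 -0.516 to 0.0254). The mean over probe sets gave slopes of -0.0159 for Hif1a, 0.0324 for Pdk1 and -0.0081 for Vegfa, with GFP4 minus GFP0 of -0.0888 for Hif1a and 0.0513 for Pdk1. The second brightest probe set gave slopes of -0.086 for Hif1a, -0.0867 for Hk1 and -0.0592 for Vegfa, with GFP4 minus GFP0 of -0.447, -0.225 and -0.114 in that order. The slope of Pdk1 was 0.0111 with weights, 0.0058 without both narrow arrays, 0.0643 without these 3 (GFP4 minus GFP0 0.176), and -0.0406 to 0.022 leaving out 1. Pdk2 had 0.0143 and 0.0655 (slope and GFP4 minus GFP0) without both narrow arrays, 0.0228 and 0.108 without these 3, and -0.056 to 0.022 and -0.286 to 0.104 leaving out 1. Pdk3 had -0.113 to 0.0431 and -0.586 to 0.194 leaving out 1. The filter on dim genes removed Pdk2.

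Over all genes the slope called 609, against 395 with the second brightest probe set, 90 with weights, 337 with the block, 165 with covariates, 156 without the narrow arrays, 269 without these 3, and 182 to 768 leaving out 1. GFP4 against GFP0 called 306, against 2 with weights, 67 with the block, 142 with covariates, 41 without the narrow arrays, 58 on these groups alone, 112 without the 3, and 51 to 363 leaving out 1. Same-numbered arrays deviated together with r from -0.258 to 0.576 (median 0.0462) over 23 pairs. Arrays with other numbers had r from -0.632 to 0.476 (median -0.0456) over 54 pairs. These ranges overlapped, so they do not settle whether the numbers pair the arrays. With the replicate block GFP4 minus GFP0 of Slc2a3 was 1.82 with an adjusted p of 0.058 in limma. The causes were not tested. The number of arrays, 2 in GFP0 and GFP3, limits precision.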
